A study of Mus musculus with 6 samples.

Results

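Cytosolic ribosomal proteins are the protein parts of the ribosomes that translate nuclear messenger RNAs. They were taken by symbol, as every deposited symbol that begins Rps or Rpl and a digit, together with Rplp0, Rplp1, Rplp2 and Rpsa, leaving out S6 kinases, Rps19bp1 and rows named as pseudogenes with -ps. This gave 93 of 48401 rows, 39 of the small (40S) subunit and 54 of the large (60S) subunit. Bulk RNA was sequenced from the L4/5 dorsal root ganglia, which hold the cell bodies of sensory neurons of the hind limb, of C57BL/6J male mice that were 8 weeks old. They had been given siCLAP, a small interfering RNA whose name points to the transcript CLAP, in 3 libraries, or siNC, taken here as the control siRNA, in 3 libraries, in both cases by injection into the intrathecal space of the spine. The labels do not say whether each library came from 1 mouse or from pooled mice, nor how long after injection tissue was taken, so p-values measure the spread between these libraries, which may be technical. No row is named CLAP, so its level was not analysed here.

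The cytosolic ribosome is built from a fixed set of proteins on ribosomal RNA, each present in a single copy except for the acidic proteins of the stalk. The genes are transcribed at high rates in nearly every cell, and their messenger RNAs typically begin with a run of pyrimidines (C and T), the 5′ terminal oligopyrimidine tract, through which the kinase mTORC1 and the RNA-binding protein LARP1 regulate their translation. In sensory neurons these messenger RNAs are also known to occur in axons, away from the cell body. Total RNA levels, as measured here, show none of that translational control.

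The start regions of the genes carried this feature in part. RefSeq start windows on GRCm38.p6, the patched form of mm10, were at hand for 67 of the 93 genes, and 30 of the 67 (44.8%) had an unbroken run of at least 8 C or T on the sense strand that touched the 10 bases on either side of the annotated start. The same held for 15.8% of the 27025 mouse genes with such a window. Rpl4, Rps6, Rpl7a and Rpl27a are shown as genes with runs of 10 to 21 bases, Rpl22l1 as the member with the largest estimated change, Rps13 and Rps4x as members without such a run, and Rps27 and Rps27rt as a pair of loci whose counts were the same. Each window runs 5′ to 3′ on the gene's own strand from 30 bases before the start to 19 after it, and capitals mark the run of at least 8 pyrimidines.
Rpl4, chr9:64173357-64173406, plus strand: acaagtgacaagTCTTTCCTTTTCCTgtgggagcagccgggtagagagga
Rps6, chr4:86857348-86857397, minus strand: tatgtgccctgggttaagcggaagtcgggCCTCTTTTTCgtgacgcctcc
Rpl7a, chr2:26910777-26910826, plus strand: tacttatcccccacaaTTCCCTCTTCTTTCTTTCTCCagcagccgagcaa
Rpl27a, chr7:109519165-109519214, plus strand: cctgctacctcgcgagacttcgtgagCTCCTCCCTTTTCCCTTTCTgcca
Rpl22l1, chr3:28805478-28805527, plus strand: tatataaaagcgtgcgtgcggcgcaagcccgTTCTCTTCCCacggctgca
Rps27, chr3:90213629-90213678, minus strand: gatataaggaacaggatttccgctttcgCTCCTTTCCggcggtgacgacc
Rps27rt, chr9:114982720-114982769, minus strand: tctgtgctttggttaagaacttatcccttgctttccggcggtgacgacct
Rps13, chr7:116334171-116334220, minus strand: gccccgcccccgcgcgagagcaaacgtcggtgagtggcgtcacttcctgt
Rps4x, chrX:102189372-102189421, minus strand: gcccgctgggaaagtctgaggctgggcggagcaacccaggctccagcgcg

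The run was 21 bases long in Rpl7a, 20 in Rpl27a, 14 in Rpl4 and 10 in both Rps6 and Rpl22l1. Relative to the annotated start, counted as base 0, it began at base 1 in Rpl22l1, at base -1 in Rps6, at base -4 in Rpl27a and at base -18 in Rpl4, so in Rpl4 it lay upstream of that start. The annotated start may differ from the base at which a transcript begins. Over the longer windows of 250 bases before to 50 after the start, the letters CGGAAG, the core of sites for ETS factors, occurred on either strand in 43 of the 67 genes (64.2%) and in 18.8% of all genes. The letters TCGCGA occurred in 14 genes (20.9%), against 2.86% of all genes, and the TATA box letters TATAAA in 8 (11.9%), against 15.7% of all genes. A match describes the letters of the window and is no measure of binding.

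The ribosomal protein genes were among the most abundant transcripts of the ganglion. Of the 93, 86 reached a mean of 1 TPM over the 6 libraries (the share of all transcripts, scaled to row length and library total), namely 36 of the small and 50 of the large subunit. Their median level was 167 TPM, against 14.1 TPM over all 19141 genes that reached 1 TPM, and 57 of them lay above 100 TPM. The 10th and 90th percentiles were 37.6 and 402 TPM, and the highest member stood 601-fold above the lowest.

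Rpl4, which reaches into the exit tunnel of the large subunit, was the most abundant, with 607, 646 and 594 TPM in the siCLAP libraries and 601, 599 and 607 TPM in the siNC libraries. Rps26, which sits where messenger RNA leaves the small subunit, followed with 527, 574 and 437 TPM in siCLAP and 481, 468 and 507 TPM in siNC. Rplp0, the base of the stalk, had a mean over all libraries of 480 TPM, Rpl10, which joins late in assembly of the large subunit, had 475 TPM, and Rps2, at the entry of the messenger RNA channel, had 472 TPM. The order of Rplp0, Rpl10 and Rps2 rests on differences smaller than their spread between libraries.

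The 5 lowest of the members that reached a mean of 1 TPM were of mixed kinds. Rps3a3, which GENCODE lists as a processed pseudogene, had 1.08, 0.635 and 1.13 TPM in siCLAP and 1.605, 1.21 and 0.429 TPM in siNC. Rpl37rt, a transcribed processed pseudogene in GENCODE but protein-coding in RefSeq, averaged 3.17 TPM over the libraries. Rpl24, which forms a bridge between the subunits and is altered in belly spot and tail mice, averaged 12.5 TPM, Rpl22l1 23.0 TPM and Rps20, a protein of the small-subunit head, 31.7 TPM.

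**Figure D1:**
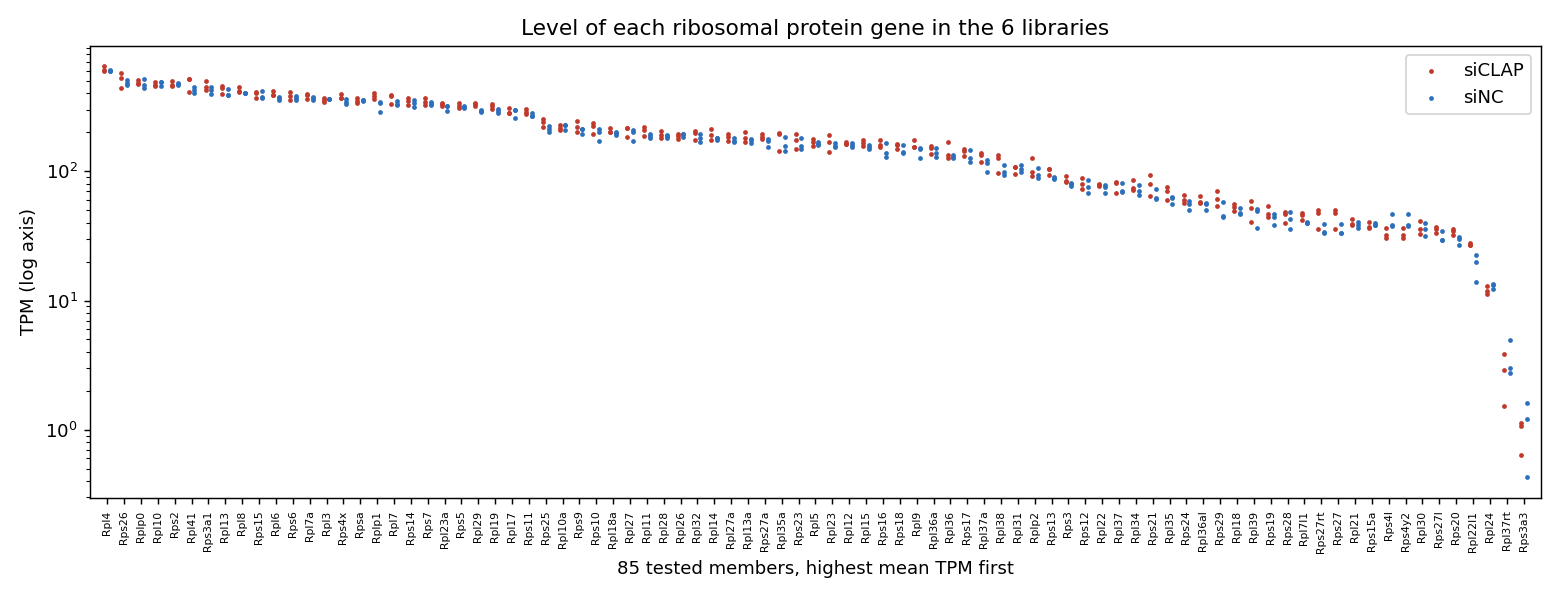
TPM of 85 of the 86 ribosomal protein genes in the 6 libraries on a log axis, siCLAP libraries in red left of siNC libraries in blue, with the highest mean level first. The levels run from Rpl4 at a mean of 609 TPM downwards, and Rps3a3 and Rpl37rt lie far below the rest in both groups.

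Part of this order came from row length, because TPM divides by the length of the row. Row lengths, worked out from counts and TPM, had a median of 862 bases in the members, against 2608 bases over all genes tested, and came to 1.77 times the coding length at the median of 82 members. In 7 members the row was more than 5 times as long as the coding sequence. Rps15a had a row of 5134 bases and a ratio of 13.2, and Rpl24 one of 4920 bases and 10.4. Rps20 had a row of 3706 bases and a ratio of 10.4, and Rps24 one of 4096 bases and 10.3. The rows of Rps15a, Rps20 and Rps24 were shorter than their joined GENCODE exons, of 6270, 4080 and 6256 bases. The row of Rpl24 was longer than its joined GENCODE exons, of 1030 bases, so its low TPM is uncertain. Divided by coding length in place of row length, Rps24 moved in the order from place 66 to place 8 and Rps15a from place 77 to place 18. Rpl41, the shortest protein of the ribosome with a coding length of 75 bases in a row of 582, took the first place on that scale. Its value was 3533, ahead of Rpsa at 795 and Rps6 at 702. These values are not TPM, since they were not rescaled to the library total. Counts from the whole row were still divided by the coding length alone, so the place of Rpl41 is no measure of its abundance. Levels of different genes can therefore be ordered only as far as these lengths hold.

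The 7 rarest members stayed below the filter and were not tested. Both Rpl10l and Rpl39l are known from testis. Rpl10l was at 0 counts in all 6 libraries, and Rpl39l had 2 counts in siCLAP-1 and 0 in the other 5 libraries. Rpl3l, known from skeletal and heart muscle, had 5, 7 and 8 counts in siCLAP and 8, 14 and 5 counts in siNC. Rpl32l, Rps3a2, Rps12l1 and Rps12l2 had at most 4 counts in any library. GENCODE lists Rpl32l, Rps3a2 and Rps12l1 as processed pseudogenes and had no entry matched to Rps12l2. A floor of 3 counts corresponds to between 0.0648 and 0.140 CPM (counts relative to the library total). All of these members except Rpl3l were thus at or near the limit of detection in the ganglion. Rpl3l lay above that floor in every library, at low counts. The limits cover counting error only.

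Reads of ribosomal protein genes are easily shared with their many processed copies, and the files carried signs of shared reads. Of the counts of tested members, 88.2% were not whole numbers within 1e-06, against 72.0% over all genes tested. These shares were not matched for level, and a fraction does not show which loci shared a read. Rps27 on chromosome 3 and its retrocopy Rps27rt on chromosome 9 had the same counts in every library. Their RefSeq start windows share a stretch of 38 bases that begins at base 1 of Rps27 and base 0 of Rps27rt. Rps4l and Rps4y2 also had the same counts in every library, and RefSeq gives Rps4y2 as an older name of Rps4l, so these 4 rows hold 2 measurements. Rows named with -ps existed for 51 members. In 6 of these they held over 10% of the counts of the gene and its copies together, namely 49.3% for Rpl34, 34.3% for Rpl14, 33.3% for Rps10, 24.7% for Rpl21, 20.9% for Rps12 and 14.9% for Rpl9. Rpl14-ps1 averaged 132 TPM, Rps10-ps2 120 TPM and Rpl34-ps1 110 TPM, so levels of the 6 parent genes are uncertain.

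Set side by side between siCLAP and siNC ganglia, most ribosomal protein genes had slightly higher estimates in siCLAP, and none passed the test across all genes. With edgeR's quasi-likelihood test on counts and Benjamini-Hochberg adjustment over all 19141 genes, 0 of 86 members had an adjusted p under 0.05, where 0.293% of all genes did (56 genes, of which 14, or 0.0731% of all, were higher and 42 lower in siCLAP). At an unadjusted p under 0.05, 27 members were higher (31.4%) and 2 lower (2.33%), where the shares over all genes were 8.22% higher and 8.75% lower. DESeq2 called 2 members, where it called 3.18% of all genes, and limma on log2(TPM + 0.5) called 0 of all genes. At an unadjusted p under 0.05, limma had 16 members higher and 2 lower, where 6.83% of all genes were higher and 8.99% lower.

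Estimates lay above 0 for 76 of the 86 members, where 49.5% of all genes did. The median log2 fold change of siCLAP over siNC was 0.12 in the members, and it was -0.00178 over all genes tested. The small subunit had a median of 0.13, with 32 of 36 estimates above 0 and 13 genes higher and 2 lower at the unadjusted threshold. The large subunit had a median of 0.10, with 44 of 50 above 0 and 14 higher and 0 lower. With 1 row kept from each pair of rows that shared their counts, 26 of 84 members were higher, 1 was lower and 75 were above 0. The members vary together between libraries, so these counts do not stand for that many separate observations.

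**Figure D2:**
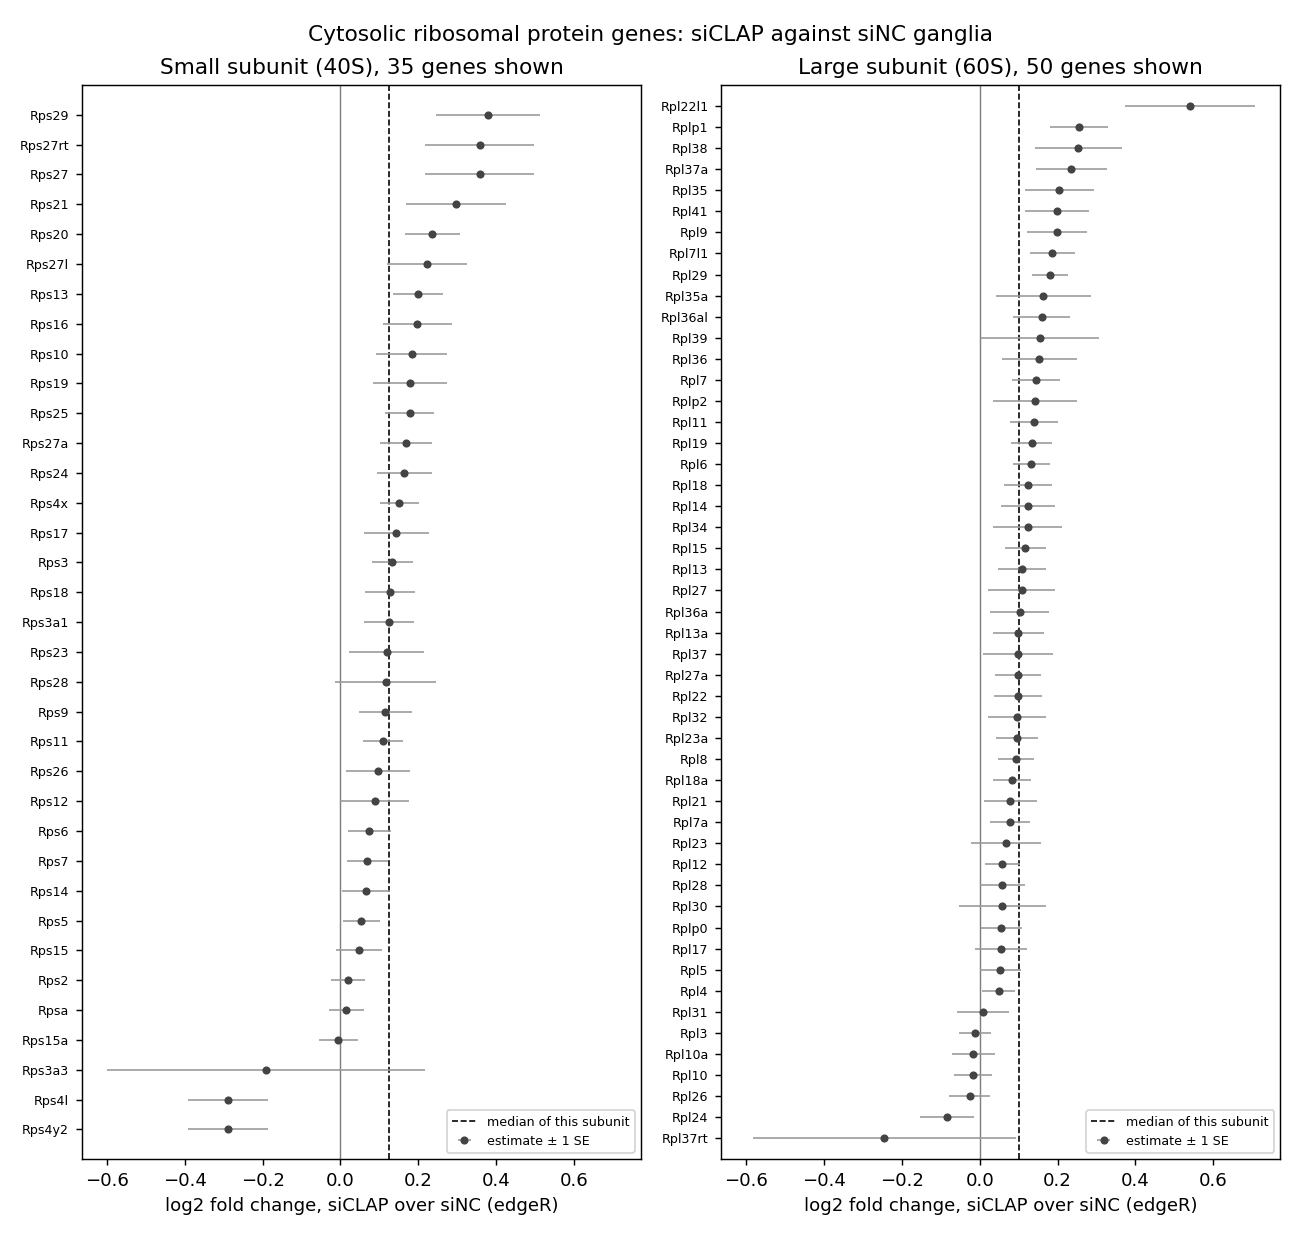
Log2 fold change of siCLAP over siNC for 85 of the 86 ribosomal protein genes, with bars of 1 standard error, ordered by size within each subunit, and a dashed line at the subunit's median. Most points lie between 0 and 0.3, Rpl22l1 lies highest at 0.54 and Rps4l and Rps4y2 lowest at -0.29.

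Ribosomal proteins together made up 1.74%, 1.84% and 1.62% of all TPM in the siCLAP libraries and 1.56%, 1.63% and 1.70% in the siNC libraries. The means were 1.73% ± 0.111 in siCLAP and 1.63% ± 0.0683 in siNC (SD, n = 3 each), a ratio of 1.06, and the groups overlapped, since siCLAP-3 lay below siNC-2 and siNC-3. The difference of 0.0994 percentage points was about as large as the pooled SD between libraries of 0.0920. It was 0.0456 with siCLAP-2 left out and 0.156 with siCLAP-3 left out. The summed TPM of the small subunit divided by that of the large was 0.662, 0.667 and 0.658 in siCLAP and 0.661, 0.656 and 0.667 in siNC, with overlapping groups. In whole ganglia, more cells of a type and more RNA per cell cannot be told apart.

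The members shifted together from library to library. Of the 86 genes, 66 had their highest TPM in siCLAP-2 and 56 their lowest in siNC-1, and both held for 49. The median gene stood 0.05 and 0.13 above and 0.05 below its 6-library mean on the log2 scale in the siCLAP libraries in order of their number, and at -0.11, -0.03 and 0.01 in the siNC libraries. In siCLAP-3, 65 genes lay below their value in siNC-3 and 49 below their value in siNC-2. In that library 15 lay above every siNC library, against 56 in siCLAP-1 and 73 in siCLAP-2. The same counts were not worked out over all genes tested, so the shift cannot be called particular to the members. The coefficient of variation over the 6 libraries had a median of 7.71% and ran from 2.43% in Rpl3, which helps to form the peptidyl transferase centre, to 41.6% in Rps3a3.

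**Figure D3:**
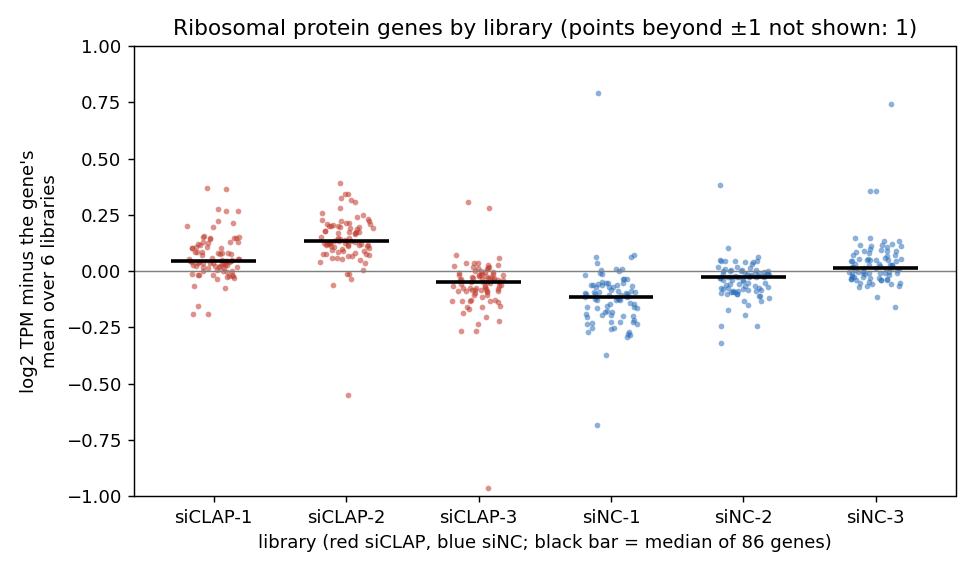
Deviation of each of the 86 genes from its own mean over 6 libraries, in log2 units, by library, with a black bar at the median of each library and 1 point beyond 1 unit left out. The genes of siCLAP-2 lie mostly above 0 and those of siNC-1 mostly below, and siCLAP-3 lies lower than siNC-3.

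Single libraries moved the counts. The number of members higher at an unadjusted p under 0.05 was 51 without siCLAP-3 (where 10.6% of all genes were higher), 28 without siNC-3 (5.32%) and 22 without siNC-2 (9.76%). It was 9 without siCLAP-2 (5.97%), 8 without siCLAP-1 (4.37%) and 7 without siNC-1 (6.21%). The median log2 fold change of the members was 0.17 without siCLAP-3 and 0.06 without siCLAP-2. Genes of the interferon response summed to 211, 425 and 257 TPM over 5 genes (Ifit1, Ifit3, Isg15, Rsad2 and Irf7) in siCLAP and 243, 251 and 430 TPM in siNC, so siCLAP-2 and siNC-3 were high. Without those 2 libraries the members' median was 0.10, with 72 estimates above 0 and 9 members higher and 2 lower at the unadjusted threshold, where 3.68% of all genes were higher and 4.47% lower. The share of mitochondrial transcripts was lowest in siCLAP-2, at 1.31%, and highest in siCLAP-3, at 1.67%, with 1.46% to 1.57% in siNC. Total counts were 39239131, 25982046 and 29583942 in siCLAP and 35702727, 46317735 and 21386768 in siNC. The part of interferon level, mitochondrial share or depth in the shifts was not tested.

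Members whose groups did not overlap numbered 14 higher and 2 lower in siCLAP, which is 16.3% and 2.33%, where 9.39% and 12.2% of all genes did so. Among those higher were Rps3, Rps4x, Rps13, Rps20 and Rps27a of the small subunit and Rpl6, Rpl7l1, Rpl8, Rpl9, Rpl22l1, Rpl29, Rpl36al and Rplp1 of the large. Those lower were the rows Rps4l and Rps4y2, which are 1 measurement.

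Rpl29, a large-subunit protein without which mice live but stay small, had the smallest p among the members. It lies on chr9:106429454-106431568 (GENCODE M21, mm10) and had 333, 335 and 317 TPM in siCLAP and 286, 294 and 298 TPM in siNC. Every siCLAP library lay above every siNC library. The log2 fold change was 0.18 ± 0.05 (SE), with an edgeR adjusted p of 0.0966, and DESeq2 gave an adjusted p of 0.0410.

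The stalk is the arm of the large subunit that recruits translation factors, and its proteins Rplp1 and Rplp2 bind in pairs to Rplp0. Rplp1, on chr9:61913284-61914542, had 379, 406 and 359 TPM in siCLAP and 287, 337 and 345 TPM in siNC. The groups did not overlap, siNC-1 being the lowest, and the log2 fold change was 0.26 ± 0.07 with an edgeR adjusted p of 0.131. The adjusted p of Rplp1 was 0.0318 with DESeq2 and 0.0167 with edgeR on all genes without the TPM filter, where 2.75% of all genes were called. Rplp2 had 98.6, 126 and 91.5 TPM in siCLAP and 88.6, 94.3 and 107 TPM in siNC, with overlapping groups and a log2 fold change of 0.14 ± 0.11. Rplp0, a common reference gene in PCR assays, stood at 0.06 ± 0.05. Whether the stalk proteins differ from each other was not tested.

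In the head and body of the small subunit, Rps20 had 34.5, 35.9 and 31.97 TPM in siCLAP and 26.8, 31.0 and 30.02 TPM in siNC. The groups did not overlap, and the log2 fold change was 0.24 ± 0.07 with an edgeR adjusted p of 0.137, or 0.0394 without the TPM filter. Rps13, which contacts the large subunit, had 104, 103 and 93.8 TPM in siCLAP and 86.5, 88.3 and 90.5 TPM in siNC, a log2 fold change of 0.20 ± 0.06 with an adjusted p of 0.161 in edgeR. Its start window lacks a pyrimidine run of 8.

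Rps25, on which several viral internal ribosome entry sites depend, had 242, 253 and 219 TPM in siCLAP and 203, 214 and 222 TPM in siNC. Its groups overlapped through siCLAP-3 and siNC-3, and the log2 fold change was 0.18 ± 0.06. Rps29, a small zinc-binding protein of the head, had 70.6, 61.5 and 54.3 TPM in siCLAP and 45.2, 43.9 and 58.3 TPM in siNC. Here too siCLAP-3 lay below siNC-3, and the log2 fold change was 0.38 ± 0.13 with an edgeR adjusted p of 0.195.

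Some of the short members had estimates above the members' median of 0.12, with wider errors. Others did not stand out, with Rps28 at 0.12 ± 0.13 and Rpl37 at 0.10 ± 0.09. Rpl41 had 520, 520 and 411 TPM in siCLAP and 406, 425 and 450 TPM in siNC. Its level in siCLAP-3 lay inside the siNC range, and the log2 fold change was 0.20 ± 0.08 with an edgeR adjusted p of 0.262. Without siCLAP-3 it was 0.30 and Rpl41 was the only member called (edgeR adjusted p = 0.0331), where 1.78% of all genes were called. Rps21 stood at 0.30 ± 0.13, Rpl38, whose loss in mice alters the axial skeleton, at 0.25 ± 0.11, and Rpl39, at the lower part of the exit tunnel, at 0.15 ± 0.15, each with overlapping groups.

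Several members are copies or diverged relatives of another member. The 6 listed as such that reached 1 TPM were tested beside their parents. Rpl37rt and Rps3a3, annotated as processed pseudogenes in GENCODE, were also tested but are not among these 6. Rpl22l1, on chr3:28805436-28807424, is the relative of Rpl22, an RNA-binding protein that is known in mice to keep the Rpl22l1 messenger RNA low. Rpl22l1 had 27.1, 26.7 and 27.7 TPM in siCLAP and 14.0, 22.4 and 20.01 TPM in siNC. The siCLAP libraries lay close together and above the siNC libraries, which differed among themselves, with siNC-1 lowest. The log2 fold change was 0.54 ± 0.17, the largest of all members, with an edgeR adjusted p of 0.148, or 0.0386 without the TPM filter, and it was 0.35 without siNC-1. Rpl22l1 had 200, 132 and 153 counts in siCLAP and 91.3, 195 and 79.5 counts in siNC, so its counting error is larger than that of most members. Rpl22 itself, the protein tagged in RiboTag mice, had 78.3, 79.3 and 76.7 TPM in siCLAP and 67.7, 78.0 and 75.5 TPM in siNC, a log2 fold change of 0.10 ± 0.06.

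Rpl7l1, whose yeast relative Rlp7 acts in assembly of the large subunit, had 45.6, 47.8 and 41.7 TPM in siCLAP and 39.8, 39.7 and 40.5 TPM in siNC. All siCLAP libraries lay above the narrow siNC range, and the log2 fold change was 0.19 ± 0.06 with an edgeR adjusted p of 0.155. Its parent Rpl7 stood at 0.14 ± 0.06 with overlapping groups. Rpl36al, a relative of the X-linked Rpl36a, stood at 0.16 ± 0.07 without overlap, and Rpl36a at 0.10 ± 0.08 with overlap.

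Rps27 and Rps27l are zinc-finger proteins of the small subunit that replace each other. Rps27 had 47.1, 49.8 and 35.7 TPM in siCLAP and 33.5, 33.1 and 38.9 TPM in siNC, with siCLAP-3 again below siNC-3, and a log2 fold change of 0.36 ± 0.14 with an edgeR adjusted p of 0.232. Since Rps27rt carried the same counts, the reads of the 2 loci cannot be told apart. Rps27l had 35.6, 37.2 and 33.5 TPM in siCLAP and 29.2, 29.3 and 34.3 TPM in siNC, a log2 fold change of 0.22 ± 0.10.

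The Rps4 genes had estimates of opposite sign. The X-linked Rps4x had 369, 394 and 369 TPM in siCLAP and 329, 341 and 360 TPM in siNC, each siCLAP library above each siNC library, with a log2 fold change of 0.15 ± 0.05 and an edgeR adjusted p of 0.166. Rps4l, on chr6:148354656-148355598 and annotated as a transcribed processed pseudogene, had 32.04, 36.2 and 30.4 TPM in siCLAP and 38.2, 37.7 and 46.8 TPM in siNC. Every siCLAP library lay below every siNC library, and the log2 fold change was -0.29 ± 0.10 with an edgeR adjusted p of 0.195. Rps4l is the sole measured locus among the members whose groups stood apart in the lower direction, and the difference between Rps4x and Rps4l was not tested.

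**Figure D4:**
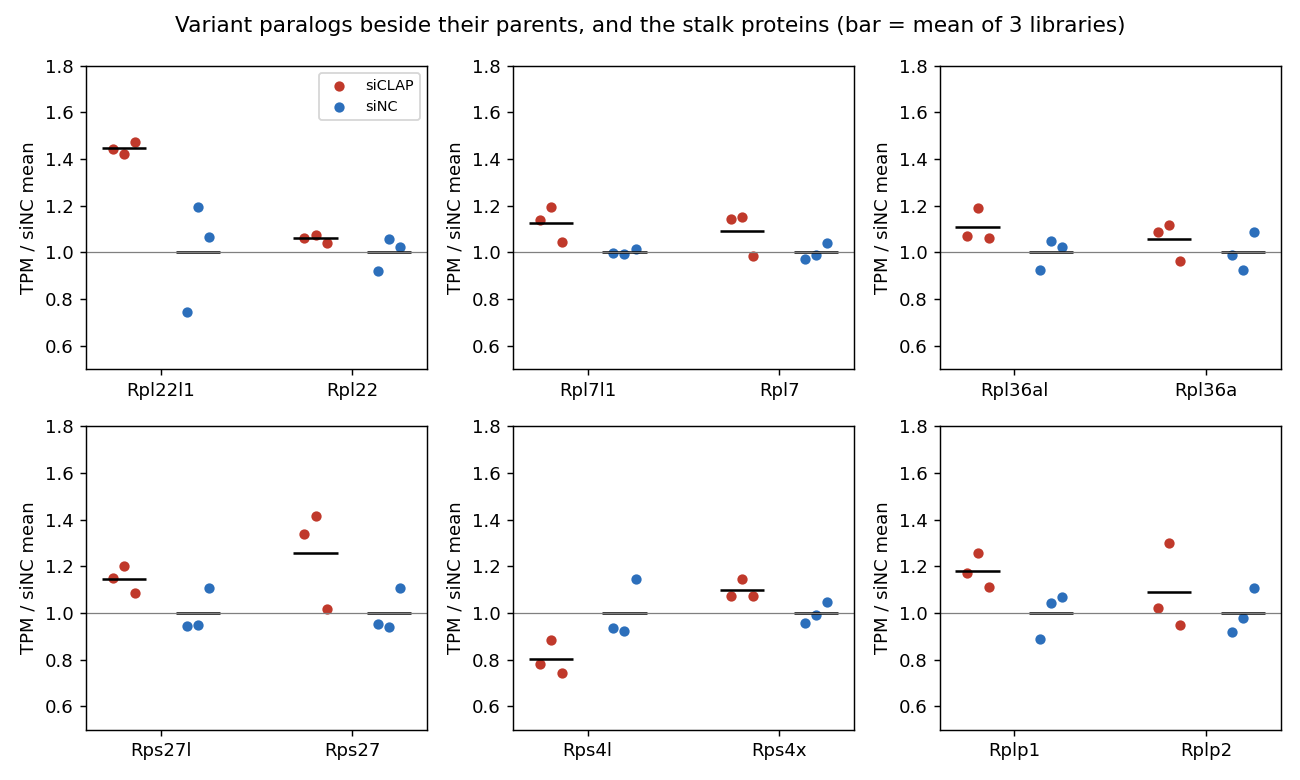
TPM divided by the siNC mean, in each library, for 5 diverged relatives beside their parents and for Rplp1 and Rplp2, siCLAP in red left of siNC in blue, with bars at the means of 3 libraries. Rpl22l1 and Rpl7l1 lie higher in all 3 siCLAP libraries, Rps4l lies lower in all 3, and the groups overlap for Rps27 and Rps27l.

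At the other end, 10 members had estimates below 0. Rpl10a, the protein tagged for ribosome purification from chosen cells, had 217, 228 and 208 TPM in siCLAP and 210, 229 and 228 TPM in siNC, a log2 fold change of -0.02 ± 0.06. Rpl10 and Rpl3 stood at -0.02 ± 0.05 and -0.01 ± 0.04, and Rps2 at 0.02 ± 0.04, with signs that turned in some settings with a library left out. Rpl24 stood at -0.09 ± 0.07, while Rpl37rt at -0.25 ± 0.34 and Rps3a3 at -0.19 ± 0.41 were too sparse for a direction.

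Rps6, the protein whose phosphorylation by S6 kinases is read as a sign of mTORC1 or neuronal activity, had 380, 412 and 359 TPM in siCLAP and 358, 379 and 368 TPM in siNC. The groups overlapped, with a log2 fold change of 0.07 ± 0.06, and RNA levels do not show phosphorylation. Rpl5 and Rpl11, which as free proteins bind Mdm2 and stabilise p53, stood at 0.05 ± 0.05 and 0.14 ± 0.06. Among genes encoded as fusions, Rps27a, fused to ubiquitin, stood at 0.168 ± 0.07, just above the members' upper quartile of 0.165. Outside the symbol rule, Fau, fused to a ubiquitin-like protein, was close to the members' median, at 0.12 ± 0.07. Gnb2l1, which encodes the small-subunit scaffold Rack1, was at 0.02 ± 0.06.

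Estimates differed between classes of row length. Members with rows under 600 bases had a median log2 fold change of 0.20 (19 members), against -0.03 over all 2434 genes in that class. The class is not matched within, since the median row was 489 bases in these members and 133 bases in all its genes, with median standard errors of 0.10 and 0.37. Between 600 and 1000 bases the medians were 0.11 (36 members) against 0.05 over all such genes, between 1000 and 2000 bases 0.08 (22 members) against 0.05, and from 2000 bases 0.12 (9 members) against -0.01. With the smooth trend of each library with row length removed, the members' median was 0.07, with 74 estimates above 0 and 14 members higher and 2 lower at an unadjusted p under 0.05, where 8.44% of all genes were higher and 8.10% lower. The part of RNA quality in this trend was not tested.

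**Figure D5:**
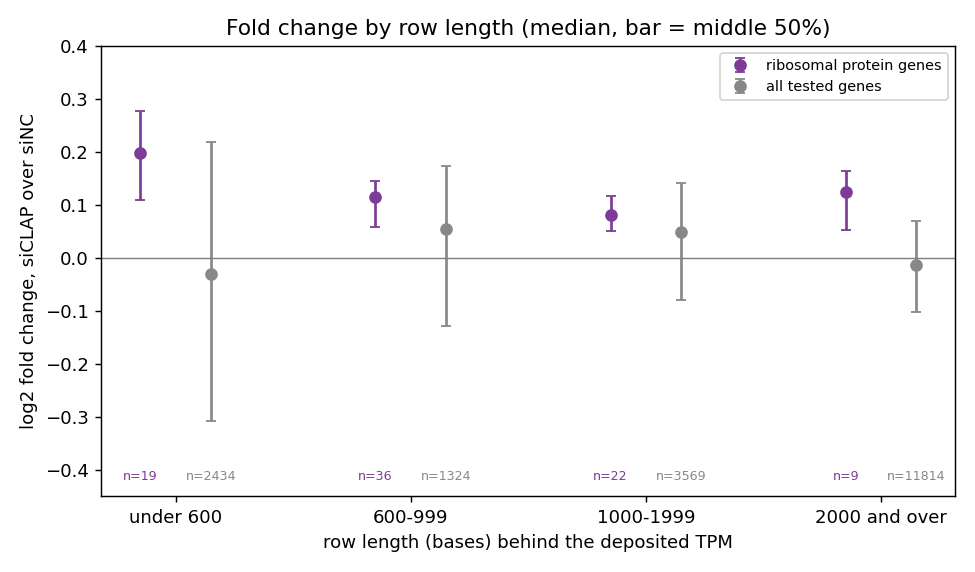
Median log2 fold change of siCLAP over siNC by class of row length in bases, for the ribosomal protein genes and for all genes tested, with bars from the lower to the upper quartile. Members under 600 bases lie highest, at a median of 0.20, and all genes of that class, most of them shorter, have a median of -0.03.

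Estimates were also set beside the letters of the start windows, with no test of any difference. Members with a run of at least 8 near the start had a median log2 fold change of 0.12, with 28 of 29 tested above 0, and those without it 0.11, with 29 of 34 above 0. Over all 1875 tested genes with such a run the median was -7.61e-05. Members with CGGAAG and without it both stood at a median of 0.12. Those with TCGCGA stood at 0.09, with 11 of 14 above 0, and those without it at 0.12, with 46 of 49 above 0. Those with TATAAA stood at 0.10 (7 tested) and those without it at 0.12 (56 tested).

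The rest of the translation machinery was read from lists by function, in which 0 genes passed edgeR's adjusted test. The counts at an unadjusted p under 0.05 stand beside 8.22% of all genes higher and 8.75% lower. Elongation factors had 2 genes higher and 1 lower of 11 at an unadjusted p under 0.05, with a median log2 fold change of 0.07. Eef1a1, which delivers aminoacyl-tRNA and whose messenger RNA also begins with a pyrimidine tract, had 2204, 2280 and 2216 TPM in siCLAP and 2458, 2414 and 2553 TPM in siNC. It was lower in every siCLAP library, at -0.13 ± 0.04 (edgeR adjusted p = 0.137). Its sign was opposite to that of most members and of 8 of the 11 elongation factors. Eef1a1 was not alone, since the groups did not overlap for 3 of the 11 higher and 3 lower in siCLAP (27.3% each). Over all genes these shares were 9.39% and 12.2%. Initiation factors had 9 higher and 0 lower of 41 and a median of 0.05, among them Mcts1 at 0.35 ± 0.07 and Eif6, which keeps the free large subunit apart from the small one, at 0.27 ± 0.07 (edgeR adjusted p = 0.0659 and 0.0885).

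Genes of ribosome assembly had 7 higher (10.8%) and 1 lower of 65, a share higher that lies near that of all genes, and a median of 0.04, including Rsl24d1, a placeholder for Rpl24, at 0.24 ± 0.06, Rpf2 at 0.29 ± 0.09 and Pes1 at -0.17 ± 0.06. Genes of mTOR signalling and S6 kinases had 1 higher and 5 lower of 32 and a median of 0.01, among them Sesn1, Rps6ka2 and Tsc2 at -0.16 ± 0.05, -0.13 ± 0.04 and -0.14 ± 0.05. Genes that receive the nascent chain had 4 higher and 1 lower of 15 and a median of 0.09, small nucleolar RNA host genes 1 higher (9.09%) and 0 lower of 11 and 0.07, and p53 target genes 2 higher and 0 lower of 13 and -0.02. Mitochondrial ribosomal proteins, which belong to a separate ribosome, had 27 higher and 0 lower of 77, with 74 estimates above 0 and a median of 0.14. Rows of ribosomal protein pseudogenes had 2 higher (6.67%) and 0 lower of 30 and a median of 0.07.

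Markers of the ganglion's cell types moved beside these values. Summed TPM of 5 neuronal markers (Tubb3, Snap25, Uchl1, Prph and Nefh) was 14607 to 15098 in siCLAP and 13508 to 14095 in siNC, without overlap. Satellite glial markers summed to 4041 to 4490 TPM in siCLAP and 3776 to 4110 in siNC, and Schwann cell markers to 3327 to 3594 in siCLAP and 3295 to 4347 in siNC. Fibroblast markers spanned 294 to 491 TPM in siCLAP and 281 to 403 in siNC, endothelial markers 50.7 to 54.8 and 47.8 to 57.2, macrophage markers 17.6 to 37.8 and 17.2 to 29.8, and erythroid markers 5.93 to 15.9 and 6.58 to 33.4. Leptomeningeal markers, from the membranes around the roots, were at 4.16 to 14.9 TPM in siCLAP and 21.1 to 96.0 TPM in siNC, without overlap. The sums hide differences between single markers. Sums such as those of satellite glia, fibroblasts, macrophages and leptomeninges each came mostly from a single gene. Of the 5 neuronal markers, 5 had estimates above 0 and 2 were higher without overlap, while the groups overlapped for the others. Of the 4 satellite glial markers, 3 had estimates above 0 and 1 below, and 1 was higher without overlap. Of the 3 fibroblast markers, 2 had estimates above 0 and 1 below, and 1 was higher without overlap. Of the 3 endothelial markers, 1 was higher and 1 lower without overlap. Of the 4 Schwann cell markers, 1 had an estimate above 0 and 3 below. The part of cell makeup in the ribosomal protein values was not tested.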

How the data were processed

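Libraries were made from total RNA with the NEBNext Ultra RNA kit, which does not mark strand, per the labels' protocols. FastQC 0.11.8, HISAT2 2.1.0, featureCounts 1.6.2 and mm10 were used per the submitters' processing notes. No source used here gives the annotation, the strand setting or how reads matching more than 1 gene were counted. The deposited files give TPM and an expected count, scaled and counted by the authors, for 48401 symbols per library. Expected counts were rounded and tested with edgeR 4.0.16 (R 4.3.3), quasi-likelihood with TMM, on 19141 genes whose mean TPM reached 1, with Benjamini-Hochberg adjustment over all of them. The biological coefficient of variation was 6.78%. Standard errors were worked out from each estimate and its F value. An exact permutation test of 3 against 3 libraries cannot go below 0.1 and was not used. Alternatives were DESeq2 1.42.0, limma 3.58.1 on log2(TPM + 0.5) and log2(TPM + 1), other scalings and filters, a replicate block, each library left out and a row length trend removed. Pseudogene rows added to their parents, siCLAP-2 and siNC-3 left out together, and levels per coding length were added after seeing the data. Row lengths were recovered as whole numbers for 92 members. GENCODE M21 matched 91 of 93 symbols. Start windows are from RefSeq on GRCm38.p6. The code was tested on simulated data.

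The members and all gene lists were chosen with earlier results of these data known. Named genes were the 5 highest and 5 lowest in level among members that reached a mean of 1 TPM. Also named were the 8 with the smallest p, the 3 largest changes in each direction and diverged relatives with their parents. Rpl29, Rps6, Rplp0 and Rpl10a were added to these. From other lists, up to 3 genes with the smallest p could be named. Other members, among them Rplp2, Rpl41, Rps21, Rpl38, Rpl5, Rpl11, Rps24, Rps15a and Rps27a, were chosen after their values were seen. Some genes are not reported here by name.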

Additional observations from a re-analysis of the deposited data

How the results depend on the processing

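The members' median log2 fold change stayed above 0 in every setting run, between 0.0645 and 0.170 with 1 library left out and between 0.0680 and 0.120 in the other settings. The number of members called, 0 with edgeR, was 3 without the TPM filter, 2 with DESeq2, and 0 to 1 with a library left out. The number of all genes called, 56 with edgeR, was 835 without the filter, 118 at a mean TPM of at least 5, 608 with DESeq2, 0 with limma at either pseudocount (3028 and 3040 genes at an unadjusted p under 0.05), 13 without siCLAP-2 and siNC-3, and 0 to 340 with a library left out. It was 340 without siCLAP-3, 157 without siNC-2, 4 without siNC-3 and 0 without siCLAP-1, where 1960 had an unadjusted p under 0.05. With the replicate number as a block it was 203, with 0 members called and a median of 0.117. Deviations of same-numbered libraries correlated at 0.0656, 0.00766 and -0.0443. siCLAP-1 correlated best with siNC-1, while siCLAP-2 and siCLAP-3 correlated best with another number. With so few libraries these values cannot settle whether the numbers pair the libraries, and the labels do not say. The summed share of members was higher by 0.0994 percentage points in siCLAP. With a library left out it was higher by 0.0456 to 0.156 (lowest without siCLAP-2, highest without siCLAP-3). Member counts per base of coding length, over the total of all genes per base of row length, came to 3.33% in siCLAP and 3.11% in siNC. Only the members were rescaled there, so these values are larger and are not shares of a whole. On that scale the difference was 0.216 and the ratio 1.07, against 1.06 for TPM. Of the values of 30 named genes in other settings, 491 kept their direction and call and 5 passed the threshold. With a library left out, signs turned for Rpl10 (-0.0556 to 0.0107, above 0 at 0.000818 without siCLAP-1 and without siNC-2), Rpl10a (-0.0614 to 0.0187, above 0 at 0.0175 without siCLAP-3 and without siNC-2), Rpl3 (-0.0354 to 0.0140, above 0 without siCLAP-3 and at 6.58e-05 without siNC-2), Rpl37rt (-0.624 to 0.0338, above 0 without siCLAP-3 and at 0.00166 without siNC-3), Rps3a3 (-0.440 to 0.113, above 0 without siNC-1) and Rps2 (-0.0128 to 0.0471, below 0 without siCLAP-2). Rps2 also stood at -0.0334 with the row length trend removed and at -0.00685 without siCLAP-2 and siNC-3. The cause was not tested. Depth limits the sparse members, since 3 counts amount to 0.140 CPM in the shallowest library.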
